A study of Mus musculus with 2 samples.

Results

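The genes described here are the nuclear-encoded genes of the mitochondrial respiratory chain and ATP synthase in immune cells of mouse liver tumours. They were chosen by symbol (Ndufa, Ndufb, Ndufc, Ndufs, Ndufv, Uqcr, Cox4 to Cox8, Sdh and Atp5) and by a minimum of 100 UMIs summed over both libraries. A UMI (unique molecular identifier) counts 1 captured RNA molecule. Of 31253 genes in the tables, 100 carried such a symbol and 91 were members. Left out were 2 symbols holding -ps, Cox6a2 and 6 genes under the minimum, 3 of those 6 with 0 UMIs. The symbols holding -ps were Ndufb1-ps, with 16010 UMIs, and Cox5b-ps, with 52. The members just inside the minimum were Cox6b2 with 179 UMIs and Cox7a1 with 210, and the genes just outside it were a second row named Atp5o with 59 and Cox4i2 with 46. The tissue-restricted isoform genes Ndufa4l2, Cox8b and Cox8c were also outside it, with 6, 0 and 0 UMIs.

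The tumours were intrahepatic cholangiocarcinomas in C57BL/6 mice, started by hydrodynamic injection of transposon vectors for Myr-AKT (membrane-targeted AKT) and YAPS127A (a YAP mutant), which both groups received. From day 7 one group received NAV2729 at 30 mg/kg every other day for 7 days (NAV), and the other was the MOCK group. CD45+ cells were sorted and pooled into 1 BD Rhapsody library per group. The series design gives 6 tumours per group and the protocol gives 3 paired tumours, and the individual animals cannot be told apart in the data. The library is therefore the replicate and there is 1 per group. No comparison below has a test, and every interval is an exact 95% interval that covers counting error only.

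The respiratory chain passes electrons from NADH and succinate to oxygen through complexes I to IV and pumps protons across the inner mitochondrial membrane, and complex V, the ATP synthase, uses that gradient to make ATP. Complexes I, III, IV and V are built from subunits encoded in both the nucleus and the mitochondrial genome, whereas all subunits of complex II are nuclear. Mature neutrophils are known for few mitochondria and a reliance on glycolysis, while macrophages and lymphocytes use oxidative phosphorylation to a degree that depends on their state.

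The members comprised 44 genes of complex I (7 core subunits, 29 supernumerary subunits and 8 assembly factors), 8 of complex II (4 subunits and 4 assembly factors), 8 of complex III, 14 of complex IV and 17 of complex V (5 of the catalytic F1 part and 12 of the membrane part and stalks).

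The analysed cells numbered 10166 in MOCK and 9838 in NAV, with medians of 3719.5 and 1993 UMIs per cell. Ptprc, which encodes CD45, had a UMI in 83.4% and 79.6% of them. Cells were clustered over both libraries and named from marker genes, as "like" a cell type, which left 497 MOCK and 472 NAV cells unnamed or as other T cells. The 12 classes with at least 90 cells in each library were read for summed levels, so 837 MOCK and 938 NAV cells were in no class read. The 6 classes with at least 200 cells (B-like, neutrophil-like, classical monocyte-like, macrophage-like, Kupffer-like and cDC2-like) were read gene by gene. The libraries shared 5 cell barcodes.

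Promoter sequences of members are shown because members are regulated from separate promoters that can hold the same short motif. Of 91 members, 78 matched the RefSeq promoter table (GRCm38.p6, 250 bases before to 50 after the annotated start). The NRF1 core GCGCATGCG was searched on both strands, and a gene was counted where any of its promoters held it. It was counted for 10 of the 78 members (12.8%), against 1.95% of all 27025 genes with a promoter and 3.90% of the 10708 read in these cells. The capitals mark the palindrome that holds this core, each line running 5′ to 3′ along the gene's strand.
Atp5g2: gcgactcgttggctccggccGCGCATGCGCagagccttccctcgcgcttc
Atp5k: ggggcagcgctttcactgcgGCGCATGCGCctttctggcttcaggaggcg
Ndufa11: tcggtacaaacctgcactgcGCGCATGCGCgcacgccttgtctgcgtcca
Ndufaf4: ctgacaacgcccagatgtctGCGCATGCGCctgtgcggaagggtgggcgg
The windows lie at chr15:102671060-102671109 on the minus strand for Atp5g2 (a proton-carrying c subunit of complex V), chr5:108434420-108434469 on the minus strand for Atp5k (a membrane subunit of complex V), chr17:56717682-56717731 on the plus strand for Ndufa11 and chr4:24897950-24897999 on the plus strand for Ndufaf4 (a complex I assembly factor). Counted by gene in the same way, the ETS/GABP letters CCGGAAG were found for 22 members (28.2%, against 19.3% of genes read). The YY1 letters AAGATGGC were found for 11 (14.1% against 5.11%) and the SP1 letters GGGCGG for 38 (48.7% against 65.3%). A match is a run of letters and not evidence of binding.

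Neutrophil-like cells had the lowest summed level of the members in both libraries. Levels are given as CPM, the UMI count of the genes scaled to the same total of UMIs for every class and library. Neutrophil-like cells had 4416 CPM in MOCK and 6150 CPM in NAV, and B-like cells were next with 7928 and 8468 CPM. The other 10 classes lay between 9651 and 13066 CPM in MOCK and between 9484 and 13637 CPM in NAV, with cycling cells highest in both. Within MOCK the neutrophil-like level was below the macrophage-like level by a log2 ratio of -1.21 (95% interval -1.24 to -1.18), and within NAV by -0.78 (-0.80 to -0.76). With the stricter cell filter the 2 ratios were -1.54 and -1.50, but there only the Retnlg-led cluster was named neutrophil-like and the cluster led by Siglecf and Il23a (577 MOCK and 1828 NAV cells) stayed unnamed, so these values describe a different subset. Neighbours of middle rank lay close: in MOCK the Kupffer-like, macrophage-like and cDC2-like levels were 10242, 10200 and 10113 CPM.

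**Figure D1:**
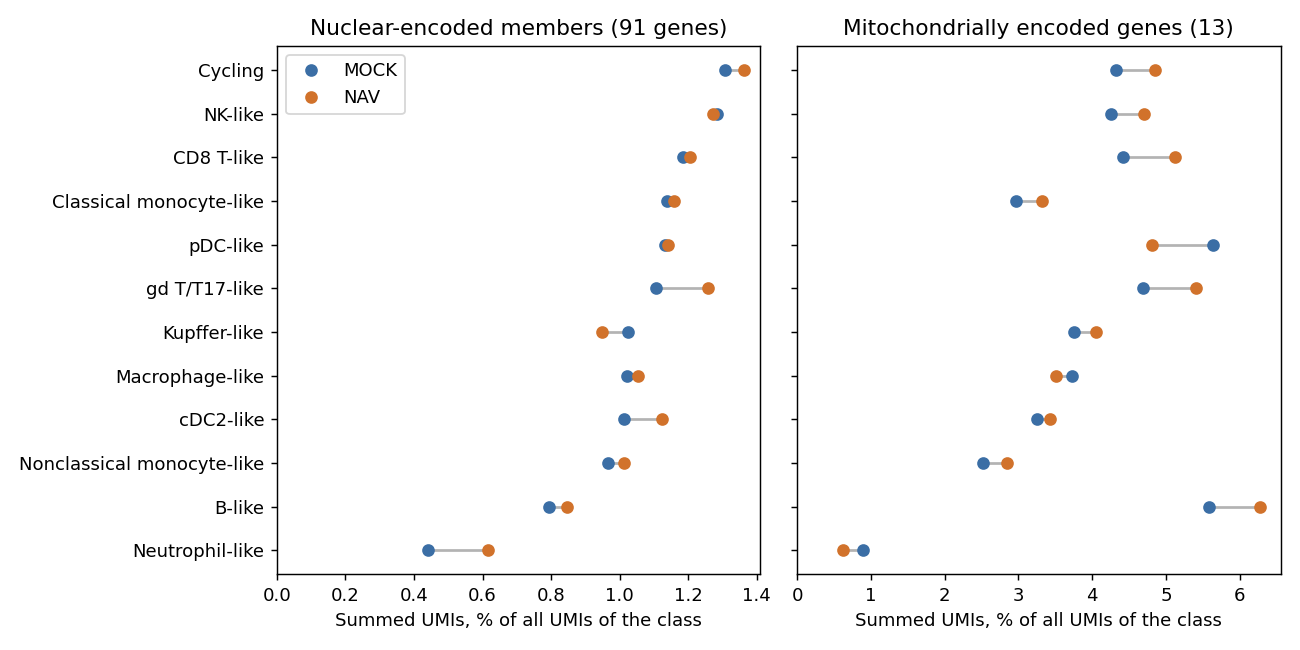
Summed UMIs of the 91 nuclear-encoded members (left) and of the 13 mitochondrially encoded genes (right) as a percent of all UMIs of each class, with 1 point per library and classes ordered by the MOCK level of the members. Neutrophil-like cells are lowest in both panels, and there the members are higher in NAV while the mitochondrially encoded genes are lower.

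Neutrophil-like and then B-like cells also had the lowest medians per cell in both libraries. The median share of a cell's UMIs that came from members was 0.392% in MOCK and 0.568% in NAV neutrophil-like cells, 0.774% and 0.822% in B-like cells, and 0.971% and 1.03% in macrophage-like cells. In MOCK the pDC-like median, 0.838%, came next, whereas by the summed level pDC-like cells ranked higher. The upper quartile of MOCK neutrophil-like cells, 0.585%, was below the lower quartile of MOCK macrophage-like cells, 0.786%. The neutrophil-like medians were 1286 and 1168 UMIs per cell, so a typical cell held only a few member UMIs.

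**Figure D2:**
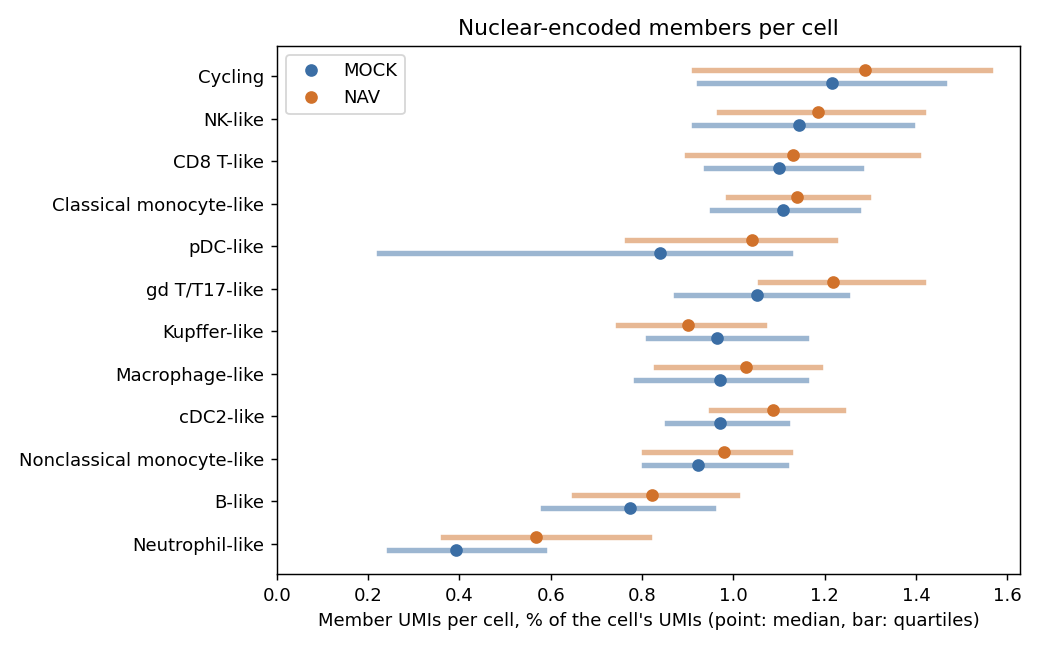
Share of each cell's UMIs that came from the members, by class and library, with points at the median and bars from the lower to the upper quartile over cells. The bars show variation between cells of 1 library and are not replicate error.

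Single members did not all share the low neutrophil-like level. Of 78 members with at least 20 UMIs in both classes and both libraries, 60 had an interval below 0 for neutrophil-like over macrophage-like cells in each library, and 2 had one above 0 in each. Of all 6695 genes read the same way, 32.3% were below 0 in both libraries and 29.8% above. Ndufc2, a supernumerary subunit of complex I, was lowest by the mean over libraries, at 18.8 against 123 CPM in MOCK (log2 -2.71, -3.14 to -2.31) and 27.6 against 147 CPM in NAV (-2.41, -2.71 to -2.12). Atp5g2 followed, at 69.1 against 506 CPM in MOCK and 134 against 479 CPM in NAV. At the other end Ndufaf7, a complex I assembly factor, was higher in neutrophil-like cells, at 26.8 against 12.2 CPM in MOCK (1.14, 0.72 to 1.55) and 25.1 against 15.2 CPM in NAV (0.73, 0.30 to 1.15). Cox8a, a small subunit of complex IV, was at 233 against 224 CPM in MOCK (0.06, -0.07 to 0.18) and 343 against 280 CPM in NAV (0.29, 0.19 to 0.40). These genes were picked from the ends of the observed order, so their place there is a description.

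B-like and Kupffer-like cells were each compared with macrophage-like cells only. Of 75 members read for B-like cells, 40 had an interval below 0 in both libraries and 6 above. For Kupffer-like cells 18 of 77 were below and 3 above. The same counts over all genes were not made. The member highest by the mean over libraries in each comparison is given next. Sdhaf1, an assembly factor for the iron-sulfur subunit of complex II, was at 82.2 CPM in MOCK and 78.9 CPM in NAV B-like cells, against 12.9 and 15.01 CPM in macrophage-like cells (log2 2.67 and 2.39). Cox5a, a nuclear subunit of complex IV, was at 628 and 607 CPM in Kupffer-like cells against 372 and 383 CPM in macrophage-like cells (0.75, 0.69 to 0.81, and 0.66, 0.55 to 0.77).

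Between libraries the members' summed level differed little in most classes. The log2 ratio of NAV to MOCK was 0.01 over all analysed cells and lay between -0.01 and 0.19 in 10 of the 12 classes. The sign of ratios this small was not fixed: in pDC-like cells they lay between -0.31 and 0.33 over the alternatives run. Kupffer-like cells were at -0.11 (-0.14 to -0.09) and neutrophil-like cells at 0.48 (0.45 to 0.51). In the latter every complex was higher in NAV by a similar amount: complex I at 0.45 (0.39 to 0.51), complex II at 0.40 (0.27 to 0.53), complex III at 0.52 (0.40 to 0.63), complex IV at 0.47 (0.41 to 0.53) and complex V at 0.51 (0.45 to 0.56).

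In neutrophil-like cells 33 of the 85 members read were higher in NAV and 1 was lower, where higher or lower means at least 1.5-fold with an interval off 0 and read means at least 20 UMIs over both libraries. Of all 9111 genes read there, 27.4% were higher and 7.81% lower. The median log2 ratio was 0.52 for the members and 0.35 for all genes read. Ndufs3, a core subunit of complex I, was at 14.8 CPM in MOCK and 36.3 CPM in NAV (1.29, 0.78 to 1.83), and Ndufb5, a supernumerary subunit, at 17.4 and 40.8 CPM (1.23, 0.76 to 1.73). Of the catalytic subunits, Atp5a1 and Atp5b (F1 alpha and beta) were at 164 and 274 CPM (0.74, 0.58 to 0.90) and at 160 and 244 CPM (0.61, 0.44 to 0.77). The Rieske iron-sulfur protein gene Uqcrfs1 was at 60.8 and 98.2 CPM (0.69, 0.43 to 0.96), and Sdha, the succinate-oxidising flavoprotein, at 94.4 and 135 CPM (0.51, 0.30 to 0.73), under the 1.5-fold limit. Scaled by median-of-ratios, which removes the shift of the typical gene, the summed ratio was 0.13 and 9 members were higher. The count of members also rested on which cells were named neutrophil-like. It was 0 with the stricter cell filter (1048 MOCK and 504 NAV cells, summed ratio 0.09) and 1 with doublets kept (1312 and 687 cells, 0.16). In both settings the Retnlg-led cluster alone was named neutrophil-like. With the libraries clustered separately the count was 13 (2028 and 1838 cells, 0.30). For median-of-ratios scaling and these settings only members were counted, so no share of all genes stands beside these counts.

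Members stood at different levels in the 3 neutrophil-like clusters, in the same order in both libraries. The cluster led by Retnlg and Ngp had 3581 CPM of member UMIs in MOCK and 3884 CPM in NAV (log2 0.12, 0.06 to 0.18). The cluster led by Il23a and Tnf had 4880 and 6179 CPM (0.34, 0.29 to 0.39), and the cluster led by Gpc3 and Siglecf had 7514 and 8043 CPM (0.10, 0.03 to 0.16). The Retnlg cluster held 1135 of the 2034 MOCK cells and 586 of the 3271 NAV cells, and the Il23a cluster 606 and 1817. The mean of the ratios within clusters, weighted by cells, was 0.21, against 0.48 for the class.

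The 13 mitochondrially encoded genes of the chain went the other way in these cells. Their sum was 8863 CPM in MOCK and 6238 CPM in NAV neutrophil-like cells (log2 -0.51, -0.53 to -0.48), and they were lower in NAV in each cluster: 5955 and 4230 CPM in the Retnlg cluster, 11986 and 6538 CPM in the Il23a cluster, and 16421 and 7264 CPM in the Siglecf cluster. The UMI ratio of nuclear-encoded members to mitochondrially encoded genes was 0.498 in MOCK and 0.986 in NAV. The ratio was also higher in NAV in macrophage-like (0.274 and 0.301), pDC-like (0.201 and 0.237) and cDC2-like cells (0.311 and 0.327). In every other class read it was lower in NAV. Among these it was 0.142 and 0.135 in B-like, 0.382 and 0.348 in classical monocyte-like and 0.272 and 0.234 in Kupffer-like cells. Intervals below and above 0 numbered 1 and 10 of 13 mitochondrially encoded genes in B-like cells. They numbered 7 and 1 of 13 in macrophage-like and 9 and 0 of 11 in pDC-like cells. Of all 6229 genes read in pDC-like cells, 786 had one below 0 and 531 one above. Clusters within both classes differed. Summed ratios (log2) were 0.04, 0.07 and 0.05 in the macrophage-like clusters led by Mmp13, Hspa1a and Fcrls. The one led by Arg1 (279 MOCK and 596 NAV cells) was at -0.09. The pDC-like clusters led by Cd7 and Siglech were at -0.42 and 0.05. Of 12 mitochondrially encoded genes read in neutrophil-like cells, 9 had an interval below 0 and 0 had one above. Of all 9111 genes read there, 1253 had one below and 3669 one above. The gene mt-Co1, a catalytic subunit of complex IV, was at 2204 and 1276 CPM (-0.79), while mt-Nd3 of complex I was at 423 and 400 CPM (-0.08, -0.19 to 0.03). Over the alternatives run, the neutrophil-like ratio of the mitochondrially encoded sum lay between -0.86 and -0.27. The macrophage-like ratio of that sum lay between -0.10 and 0.01, so its sign was not fixed.

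**Figure D3:**
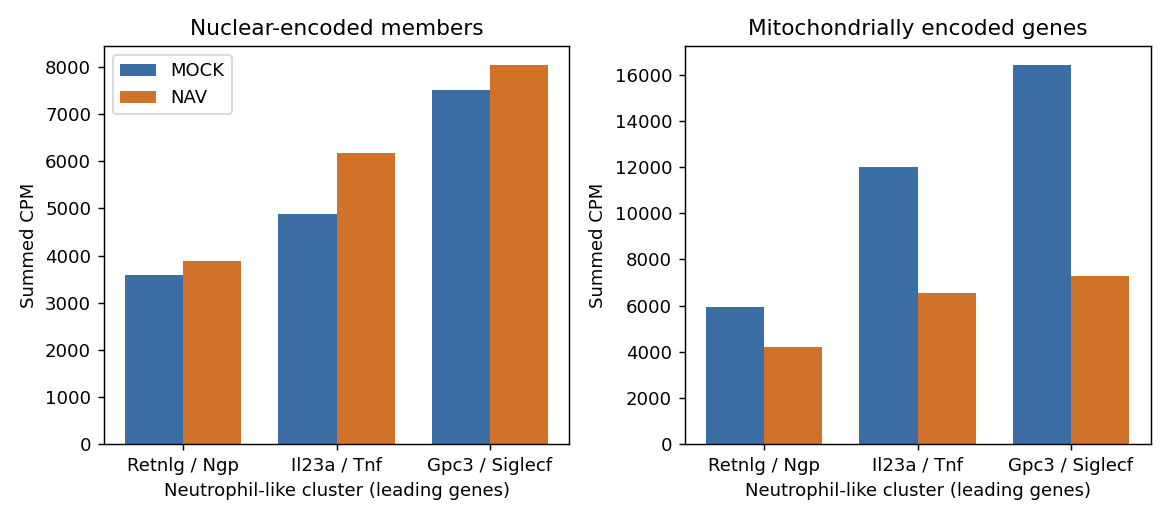
Summed CPM of the members (left) and of the mitochondrially encoded genes (right) in the 3 neutrophil-like clusters, named by 2 leading genes, with 1 bar per library. Members rank the clusters in the same order in both libraries, and the mitochondrially encoded bar is lower in NAV in each cluster.

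Markers of other cell types were also read in the same class. Whether their UMIs came from other cells was not tested. The 14 hepatocyte and tumour epithelium markers summed to 257 CPM in MOCK and 413 CPM in NAV neutrophil-like cells. Most of that was Spp1, also a macrophage marker here, at 49.9 and 215 CPM, and Trf at 201 and 184 CPM. Krt19, Krt8, Apoa1, Ttr, Serpina1a and Serpina1c were at 0, and Alb was at 2.53 and 0.995 CPM. Krt18, an epithelial keratin, was at 2.53 and 11.9 CPM (7 and 48 UMIs). Of the 3 markers of this list with at least 20 UMIs over both libraries, 2 were higher in NAV, Spp1 and Krt18. The 12 endothelial markers summed to 42.7 and 83.8 CPM, most of it Flt1, and the erythroid markers were at 0. Their part in the members' difference was not tested.

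Other gene lists were read the same way in neutrophil-like cells. Genes higher and lower in NAV numbered 36 and 2 of 66 for the mitochondrial ribosome (median log2 0.80), 52 and 11 of 83 for the cytosolic ribosome (0.72), 19 and 2 of 37 for the proteasome (0.60), 8 and 0 of 13 for fatty acid oxidation (0.62), 4 and 0 of 18 for the tricarboxylic acid cycle (0.36) and 3 and 1 of 14 for glycolysis (-0.07). Assembly factors outside the symbol rule had 12 higher and 0 lower of 31 (0.61), mitochondrial import and inner membrane genes 20 and 1 of 29 (0.68), and regulators of mitochondrial gene expression 6 and 0 of 13 (0.65). Chain genes outside the symbol rule, which include cytochrome c and coenzyme Q synthesis, had 5 higher and 1 lower of 15 (0.42). The members' median of 0.52 lay inside the range of these lists.

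In the other 5 large classes more members were lower than higher in NAV at the 1.5-fold limit, at shares near those of all genes. Without that limit, member intervals above and below 0 numbered 26 and 19 in macrophage-like (median log2 0.07) and 28 and 8 in cDC2-like cells (0.17). They numbered 20 and 17 in classical monocyte-like (0.06), 10 and 9 in B-like (0.06) and 3 and 21 in Kupffer-like cells (-0.10). Over all genes read they numbered 2161 and 2259 of 11178 in macrophage-like and 1011 and 1092 of 8909 in cDC2-like cells. The other all-gene counts were 1490 and 1872 of 10218 in classical monocyte-like, 479 and 1063 of 8694 in B-like and 973 and 1418 of 10303 in Kupffer-like cells. At the 1.5-fold limit, in macrophage-like cells 10 of 91 were lower and 0 higher, with 10.2% and 4.17% of all genes read. In classical monocyte-like cells 8 of 91 were lower and 1 higher (10.2% and 2.51% of all genes), in Kupffer-like cells 6 of 89 and 0 (8.51% and 2.84%), in B-like cells 8 of 88 and 2 (7.84% and 1.67%), and in cDC2-like cells 5 of 88 and 3 (7.58% and 4.38%). Of those higher, Cox4i1, a regulatory subunit of complex IV, was at 115 and 181 CPM in B-like cells (0.65, 0.37 to 0.94). Ndufs4 of complex I and Ndufa4 of complex IV were at 34.2 and 59.7 CPM (0.81, 0.36 to 1.26) and at 61.5 and 93.3 CPM (0.60, 0.26 to 0.95) in cDC2-like cells.

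A few genes were lower in several classes. Ndufb7, a supernumerary subunit of complex I on the intermembrane side, was lower in NAV in all 6 large classes. It was at 28.4 and 7.06 CPM in B-like cells (log2 -2.01, -3.08 to -1.04), 18.8 and 8.46 CPM in neutrophil-like cells (-1.15, -1.82 to -0.50) and 44.0 and 8.43 CPM in classical monocyte-like cells (-2.39, -2.88 to -1.92). It was at 32.1 and 9.40 CPM in macrophage-like cells (-1.77, -2.20 to -1.37), 28.1 and 6.04 CPM in Kupffer-like cells (-2.22, -3.30 to -1.31) and 45.0 and 7.05 CPM in cDC2-like cells (-2.67, -3.52 to -1.91). Uqcr11 (a small subunit of complex III), Ndufv1 (the NADH-oxidising core subunit of complex I) and Ndufa13 (a supernumerary subunit of complex I) were lower in 5 of the 6. In neutrophil-like cells their ratios were -0.84, -0.38 and -0.34, with intervals that include 0. In macrophage-like cells Uqcr11 was at 31.0 and 13.7 CPM (-1.18), Ndufv1 at 26.7 and 11.4 CPM (-1.23) and Ndufa13 at 69.4 and 31.5 CPM (-1.14). Ndufa7 and Ndufs5 of complex I were lower in 4 of the 6. Genes outside the members were lower in several classes too. The proteasome gene Psmd13 was lower in all 6, with ratios of -1.87 in macrophage-like and -1.20 in neutrophil-like cells. Of 82 cytosolic ribosome genes read in macrophage-like cells, 14 were lower and 2 higher. How many of all genes were lower in several classes was not counted.

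Among other core subunits of complex I, Ndufs7 was lower in B-like cells, at 13.1 and 4.71 CPM (-1.48, -2.89 to -0.20). Ndufv2, which sits beside Ndufv1 in the NADH module, was at 90.1 and 99.3 CPM in macrophage-like cells (0.14, 0.00 to 0.28), and Ndufs1 at 35.6 and 37.0 CPM (0.05, -0.18 to 0.29). In complex II, Sdhb, the iron-sulfur subunit, was at 50.9 and 33.3 CPM in macrophage-like cells (-0.61, -0.85 to -0.38), and Sdhc, a membrane anchor, was lower in Kupffer-like cells at 199 and 123 CPM (-0.70, -0.92 to -0.48). Sdha in macrophage-like cells was at 138 and 147 CPM (0.09, -0.02 to 0.21) and Sdhd, the other anchor, at 101 and 104 CPM (0.05, -0.09 to 0.19).

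**Figure D4:**
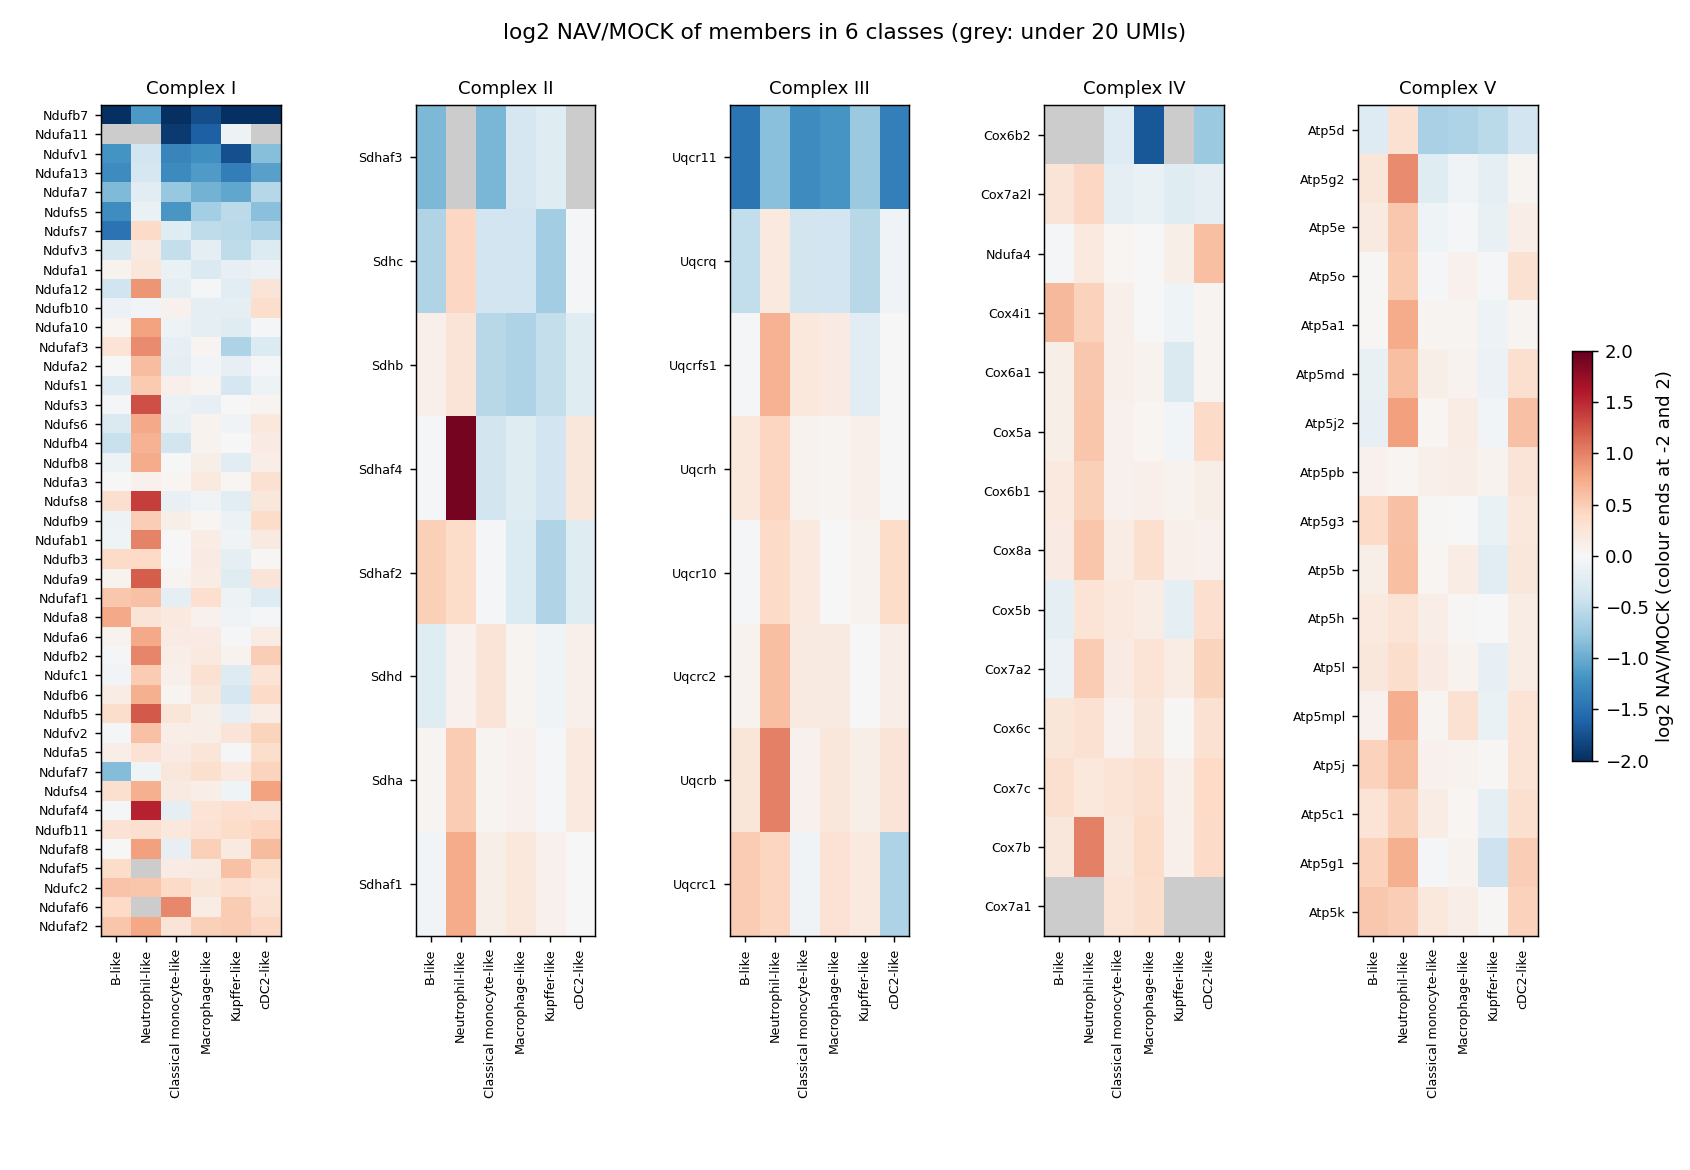
log2 NAV/MOCK of the members in the 6 large classes, by complex and ordered by the median over classes, with blue for a ratio below 0, red for one above 0 whether or not its interval includes 0, and grey for under 20 UMIs. The neutrophil-like column is mostly red, and Ndufb7, Ndufv1, Ndufa13 and Uqcr11 are blue in each column, the last 3 with intervals that include 0 in neutrophil-like cells.

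Most members that were lower had GC-rich transcript ends. The GC content of the last 500 bases of 1 GENCODE vM21 transcript per gene was 58.8% for Ndufb7, 58.9% for Uqcr11, 58.6% for Ndufa13 and 55.0% for both Ndufv1 and Ndufa7, against a median of 48.4% over the members. Ndufs5, at 49.8%, was below the highest decile. Among all genes read in macrophage-like cells the share lower in NAV was 3.73% in the lowest decile of this GC content and 32.9% in the highest. Of the 20 members in the highest decile 8 were lower, and of the 71 in the others 2 were. Cox8a (57.2%) and Cox6a1 (58.0%) were in the highest decile and had macrophage-like log2 ratios of 0.32 and 0.07. The Pearson correlation over the 91 members in macrophage-like cells was -0.46, as a description, since these genes share both libraries. Whether GC content plays a part in the members' differences was not tested.

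**Figure D5:**
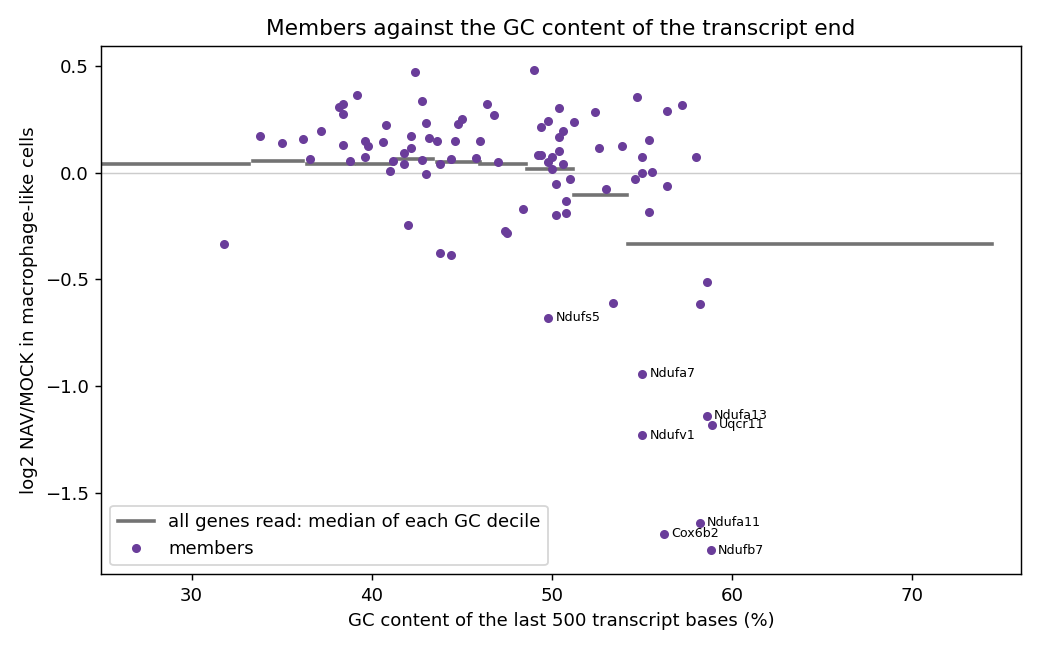
log2 NAV/MOCK in macrophage-like cells against the GC content of the last 500 transcript bases, with 1 point per member and grey lines at the median of all genes in each GC decile. Members below -0.65 are named, and 7 of the 8 lie in the highest decile.

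The last coding bases of lower and not lower members are shown to let that composition be seen, with G and C in capitals, 5′ to 3′ along the gene's strand (GENCODE vM21 on GRCm38, ending before the stop codon).
Ndufb7: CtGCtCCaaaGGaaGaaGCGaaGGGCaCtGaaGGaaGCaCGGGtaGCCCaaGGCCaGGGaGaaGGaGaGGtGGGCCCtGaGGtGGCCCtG
Uqcr11: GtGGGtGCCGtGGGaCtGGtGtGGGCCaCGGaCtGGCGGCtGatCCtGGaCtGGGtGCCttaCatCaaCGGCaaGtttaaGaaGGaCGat
Ndufv1: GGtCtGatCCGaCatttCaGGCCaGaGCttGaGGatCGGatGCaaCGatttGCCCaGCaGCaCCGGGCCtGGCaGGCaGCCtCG
Cox8a: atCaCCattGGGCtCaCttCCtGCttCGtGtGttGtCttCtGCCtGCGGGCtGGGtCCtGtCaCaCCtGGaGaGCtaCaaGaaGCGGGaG
Atp5e: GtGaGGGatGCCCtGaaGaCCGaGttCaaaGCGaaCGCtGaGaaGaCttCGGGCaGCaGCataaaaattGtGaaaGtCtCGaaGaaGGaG
These are exonic coding stretches. They lie at chr8:83571473-83571562 (plus strand, 63.3% GC) for Ndufb7, chr10:80404169-80404258 (minus, 60.0% GC) for Uqcr11 and chr19:4007582-4007665 (minus, 61.9% GC) for Ndufv1. Those of the members not lower lie at chr19:7215392-7215481 (minus, 57.8% GC) for Cox8a and chr2:174462506-174462595 (minus, 50% GC) for Atp5e. By the GC content of transcript ends used above, Atp5e was at 54.6%, close to the lower member Ndufv1 at 55%. Both were in the highest decile in macrophage-like cells, so the coding bases shown do not set Atp5e apart by that measure. The last 90 coding bases of the lower member Ndufa13, not shown, were at 56.7% GC, below those of Cox8a. In macrophage-like cells Cox8a was at 224 and 280 CPM, and Atp5e, the epsilon subunit of complex V, at 217 and 213 CPM.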

How the data were processed

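The authors deposited 1 table of raw UMI counts for each library. The tools listed in the submitters' processing notes are STARsolo 2.7.10a, fastp and Cell Ranger, and the build is mm10, with no role given for any. The tables held 10863 MOCK and 10465 NAV barcodes, 45976676 and 31454031 UMIs, and no barcode under 500 UMIs.

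The cell filter asked for 500 or more UMIs, 200 or more genes and a mitochondrial share below 20%, which 10770 and 10441 barcodes met. The automatic Scrublet threshold marked 1 and 0 barcodes and had not worked, so barcodes scoring over 0.25 (176 and 174) were removed, as were whole clusters whose median score exceeded 0.1 (538 and 542 barcodes). Cells were clustered with scanpy 1.11.5 (2000 variable genes, 30 components, 15 neighbours, Leiden resolution 1) without batch correction. Naming a cluster needed 3 or more markers, each raised by a log2 fold of 1 or more, and other clusters stayed unnamed.

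Counts were summed per class and library. Ratios carry exact conditional 95% intervals (scipy 1.17.1), and the scripts were tested on simulated data. Named genes are the 2 members at each end of every large class by the interval bound nearest 0, those called alike in all 6, those at the UMI minimum, the core subunits, and others chosen after their values were seen. The members and lists were chosen with earlier results of these data known. Alternatives changed the cell filter, doublets, resolution, joint clustering, scaling, denominator, weighting, UMI minimum, fold and member minimum. Leaving out members of high GC content, averaging within clusters and the alternatives for the mitochondrially encoded sum were added after seeing the data. The values of 1 member are not reported here, though it is counted in all sums and counts.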

Additional observations from a re-analysis of the deposited data

Results flagged for a closer look

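The members' summed level differed between NAV and MOCK in opposite directions in Kupffer-like cells (log2 -0.1109) and neutrophil-like cells (0.4778). The mitochondrially encoded genes did so in neutrophil-like cells (-0.5067) and CD8 T-like cells (0.215). With 1 library per group, none of these differences between classes was tested.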

How the results depend on the processing

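No paired analysis was possible because each group has 1 library. Of 114 summed ratios under the alternatives 12 had the other sign than the reported one, none of which had reached 1.5-fold, and the cause of each change below was not tested. With the stricter filter and with doublets kept, the cluster led by Siglecf and Il23a stayed unnamed, so the neutrophil-like values there are those of the Retnlg-led cluster alone. Neutrophil-like cells in MOCK and NAV numbered 1854 and 1987 at resolution 2, and 2028 and 1838 with libraries clustered separately. Unnamed NAV cells there numbered 1529 and 1434, against 412 in the main setting. Neutrophil-like values of these 2 settings therefore also describe a different subset. Summed NAV over MOCK ratios (log2) moved beyond their counting interval as follows. With the stricter filter they were 0.0852 in neutrophil-like and 0.11 in cDC2-like cells. With doublets kept they were -0.0034 in classical monocyte-like, 0.12 in cycling, -0.0705 in Kupffer-like, 0.0610 in macrophage-like, 0.16 in neutrophil-like and 0.10 in cDC2-like cells. At resolution 2 they were 0.0082 in classical monocyte-like and -0.0840 in Kupffer-like cells. With libraries clustered separately they were -0.0809 in CD8 T-like, -0.0071 in classical monocyte-like, 0.36 in cycling, -0.14 in Kupffer-like, 0.0805 in macrophage-like, 0.30 in neutrophil-like, -0.00062 in nonclassical monocyte-like and -0.31 in pDC-like cells. With median-of-ratios scaling they were 0.16 in B-like, 0.0435 in classical monocyte-like, 0.12 in cycling, -0.0817 in Kupffer-like, 0.13 in neutrophil-like and 0.12 in cDC2-like cells. With equal weight per cell they were 0.0425 in classical monocyte-like and 0.33 in pDC-like cells. Without members in the highest GC decile they were 0.0570 in classical monocyte-like, 0.0727 in macrophage-like and 0.18 in cDC2-like cells. Averaged within clusters they were 0.0041 in classical monocyte-like and 0.21 in neutrophil-like cells.

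Counts of members called also moved, and under the alternatives only members were counted, with no share of all genes. Those higher in NAV were, in neutrophil-like cells, 0 (stricter filter), 1 (doublets kept), 13 (separate), 9 (median-of-ratios) and 7 (fold of 2), against 33. In B-like cells they were 1 (doublets kept), 4 (median-of-ratios), 0 (fold of 2) and 1 (without the highest GC decile). In classical monocyte-like cells they were 0 with the stricter filter, doublets kept, a fold of 2 and members of at least 1000 UMIs. In Kupffer-like cells they were 1 with doublets kept and with no UMI minimum, and in macrophage-like cells 1 with doublets kept and at resolution 2. In cDC2-like cells they were 1 with the stricter filter, doublets kept, resolution 2 and median-of-ratios, and 0 at a fold of 2. Those lower in NAV, without the highest GC decile, were 2 in B-like, 1 in classical monocyte-like, 1 in Kupffer-like, 2 in macrophage-like, 0 in neutrophil-like and 1 in cDC2-like cells. They were 10 in Kupffer-like cells with separate clustering, 6 in macrophage-like and 3 in cDC2-like cells at a fold of 2, and in neutrophil-like cells 2 (stricter filter, resolution 2, separate) and 3 (median-of-ratios).

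Between classes, neutrophil-like over macrophage-like cells in MOCK were -1.54 (stricter filter), -1.54 (doublets kept), -1.28 (resolution 2), -1.34 (denominator without mitochondrial and ribosomal genes) and -1.14 (equal weight), and in NAV -1.50, -1.44, -0.83, -0.89 and -0.73, with -1.002 clustered separately. B-like over macrophage-like cells in MOCK were -0.40 (resolution 2), -0.26 (denominator) and -0.33 (equal weight), and in NAV -0.35 (doublets kept), -0.35 (resolution 2), -0.36 (separate) and -0.19 (denominator). Neutrophil-like over B-like cells in MOCK were -1.18 (stricter filter), -1.15 (doublets kept) and -1.08 (denominator), and in NAV -1.18, -1.09 and -0.71, with -0.64 clustered separately.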
